A study of Mus musculus with 22 samples.

Results

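Myc and 35 genes of ribosome biogenesis were followed through every library of a mouse study of natural killer (NK) cells and pancreatic cancer. The 36 genes came from a list of symbols matched to the Ensembl gene IDs of the count tables, 36 of 78298 genes, and the rule that names them uses no measured value. All 36 were found, and all 36 passed the filter on low counts in each fit. The study addressed how the sex of NK cells relates to their action on pancreatic cancer cells, with cell cultures and with tumours grown in mice.

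The 22 libraries of polyadenylated RNA fell into 9 groups. NK monocultures were splenic NK cells kept for 24 h with IL-2, a cytokine that sustains NK cells (2 libraries from female and 2 from male donors). Fresh NK cells were untreated splenic cells, described as positively sorted (2 female, 2 male). Co-cultures held NK cells and Panc02, an established mouse pancreatic cancer line, for 24 h with IL-2 (2 with female and 2 with male NK cells), and the labels do not say that the cell types were separated. Allografts were Panc02 tumours from 4 female and 4 male hosts, taken whole with the host cells in them. Cultured Panc02 alone had 2 libraries, for which no IL-2 is listed. Mouse strain, age and the days of tumour growth are not given in the sources used here, and all tumour cells come from a single line. RNA of sorted NK cells was taken on oligo(dT) beads and that of cell experiments and tumours with phenol reagent, so culture and extraction method cannot be told apart in any comparison with fresh cells. RNA input was 500 ng for allografts and 100 ng for cultured Panc02, monocultures and co-cultures, with none listed for fresh cells. Input thus cannot be told apart from growth in a host. Nothing in the labels says that each sample is its own animal or culture, so the p-values reflect sample-to-sample spread only, some of which may be technical.

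Ribosomes are built in the nucleolus, where RNA polymerase I transcribes the precursor of ribosomal RNA and small nucleolar ribonucleoproteins (snoRNPs), helicases and assembly factors process it into the 40S and 60S subunits. Myc is a transcription factor that heterodimerises with Max, binds the E-box CACGTG, and is known to drive many genes of this pathway in growing cells. Lymphocytes enlarge their nucleoli when they are activated, and tumour cells often keep the pathway high.

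RefSeq promoter windows (250 bases before to 50 bases after a start site, build GRCm38.p6) were matched for 30 of the 36 genes. Those not matched were Myc, Fbl, Npm1, Bop1, Rrp12 and Rrs1. The letters CACGTG, which read the same on both strands, occurred in the windows of 7 of the 30 genes (23.3%), against 8.09% of all 27025 genes in that table and 11.3% of the 11042 of them tested in NK cells. The stretches around these matches are shown because they are the letters Myc is known to bind. The capitals mark the E-box, and each sequence runs 5′ to 3′ along the gene.
Mybbp1a, chr11:72441355-72441376, plus strand, 40 bases after the start site: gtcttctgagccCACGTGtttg
Nop2, chr6:125131783-125131868, plus strand, 60 bases before it: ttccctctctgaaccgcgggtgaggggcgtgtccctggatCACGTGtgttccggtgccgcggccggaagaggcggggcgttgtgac
Pes1, chr11:3963965-3963994, plus strand, 2 bases after it: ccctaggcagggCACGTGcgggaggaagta
Tsr1, chr11:74898092-74898121, plus strand, 24 bases after it: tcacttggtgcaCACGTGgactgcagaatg
Utp20, chr10:88826765-88826789, minus strand, 37 bases after it: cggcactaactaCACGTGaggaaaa
Utp4, chr8:106893643-106893672, plus strand, 15 bases after it: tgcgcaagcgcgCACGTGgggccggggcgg
Wdr43, chr17:71616220-71616249, plus strand, 17 bases after it: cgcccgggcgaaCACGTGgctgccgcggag
Nop2, an rRNA methyltransferase, was the gene with its match before the start site, and the other 6 matches began 2 to 40 bases after it. Such matches are a description of letters and do not show binding. The share was 44.8% of 29 Myc target genes outside the nucleolus, 22.2% of 63 other ribosome biogenesis genes and 10.3% of 58 cytoplasmic ribosomal protein genes.

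Total counts ranged from 13025549 to 46842646 per library, so that the member with the lowest level, Ddx10 in the allografts, still had 13.7 CPM. CPM is a gene's count scaled to the same library total in every sample, and it cannot tell fewer cells of a type from less RNA per cell. NK markers summed to 10100 to 11600 CPM in monocultures and 9760 to 10900 CPM in fresh cells. Genes restricted to NK cells put the NK share of co-culture RNA at 1.72% to 3.36%, so the co-cultures are Panc02 libraries with little NK RNA. In the allografts, the median Panc02-restricted gene reached 27.6% to 43.7% of its level in culture, where these genes were chosen as high. The allografts of female 4, female 2 and male 7 held the most skeletal muscle RNA, with marker sums of 30900, 20100 and 9340 CPM.

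Across conditions the biogenesis genes were highest in the tumour line in culture and lowest in tumours. The 35 genes other than Myc summed to 3250 to 3910 CPM in NK monocultures, 5120 to 5430 CPM in fresh NK cells, 8700 to 8910 CPM in co-cultures, 2200 to 3140 CPM in allografts and 8600 to 8830 CPM in cultured Panc02. The mean level was highest in cultured Panc02 for 21 members, in co-culture for 14 and in fresh NK cells for 1, the helicase Ddx10. It was lowest in allografts for 28 members and in NK monocultures for 8. Myc itself averaged 151 ± 22.3 CPM in NK monocultures, 180 ± 19.9 CPM in fresh NK cells, 246 ± 10.2 CPM in co-cultures (SD, n = 4 each), 79.8 ± 12.2 CPM in allografts (SD, n = 8) and 252 ± 9.81 CPM in cultured Panc02 (SD, n = 2). In that order, co-culture and cultured Panc02 did not pass the test against each other, nor did NK monoculture and fresh NK cells, as given below.

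**Figure D1:**
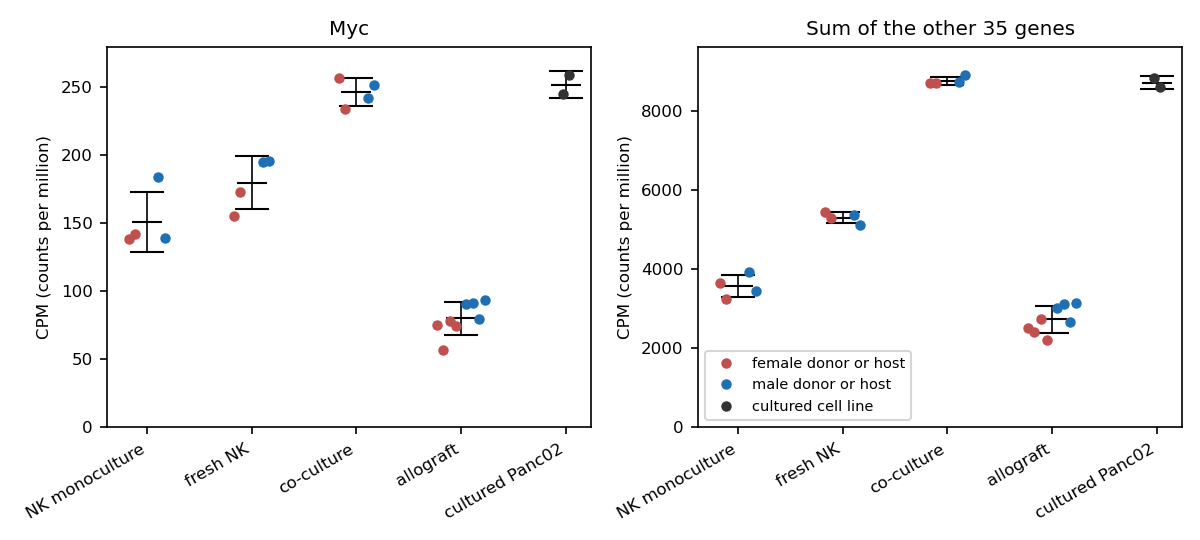
CPM of Myc (left) and summed CPM of the other 35 genes (right) in each of the 22 libraries, by condition; points are libraries, coloured by the sex of the NK donor or host, and bars give the mean ± SD per condition. The allografts lie lowest in both panels, and the sum of the 35 genes separates NK monocultures (3250 to 3910 CPM) from fresh NK cells (5120 to 5430 CPM), whereas their Myc values overlap.

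Scaled to exon length, Npm1 was the most abundant member in every condition. This histone and ribosome chaperone averaged 164 CPM per kb in NK monocultures, 289 in fresh NK cells, 506 in co-cultures, 158 in allografts and 482 in cultured Panc02. Myc held rank 3 of 36 per kb in NK monocultures (55.4) and fresh NK cells (66.2), behind Npm1 and nucleolin (Ncl), and rank 7 in co-cultures (90.5), allografts (29.4) and cultured Panc02 (92.7). Wdr12 ranked lowest throughout, at 1.77 CPM per kb in NK monocultures and 4.94 in fresh NK cells, over an annotated exon length of 11955 bases. These ranks depend on that annotated length, which was 2665 bases for Npm1 and 10188 for Ncl. In CPM without that scaling, Ncl was above Npm1 in every NK library. Npm1 has many processed pseudogenes, and reads that map to several places were counted, so its value is uncertain. Exons of Nop56, Gnl3, Ncl and Nop58 share 8.0%, 3.85%, 2.12% and 0.781% of their bases with other genes of the same strand, which touches their counts as well.

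The first comparison asked what 24 h of culture with IL-2 did to these genes in NK cells. Of the 36 members, 28 fell and 1 rose in monocultures relative to fresh cells (edgeR quasi-likelihood test, Benjamini-Hochberg adjusted p under 0.05). Over all 19623 genes tested, 45.2% were called, 22% lower and 23.1% higher. The median log2 fold change of the members was -0.30, beside 0.01 for all genes. The levels did not overlap between monocultures and fresh cells for 27 members, all lower in monocultures, and 22.9% of all genes tested showed that separation. Across the 4 monocultures the median member stood at 75.9% and 66.9% (female) and at 80.6% and 70.0% (male) of its mean in fresh cells of the same sex.

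Myc was not among the members that fell. It had 138 and 142 CPM in female and 184 and 139 CPM in male monocultures, against 155 and 173 CPM in female and 195 and 196 CPM in male fresh cells. The groups overlap because the male 4 monoculture, at 184 CPM, lies above both female fresh libraries. The log2 fold change was -0.15 ± 0.08 (SE; adjusted p = 0.121). The call depended on single choices: without the male 4 monoculture the change was -0.25 (adjusted p = 0.00541), without the male 5 monoculture -0.05 (not called), with total counts as the scale -0.25 (adjusted p = 0.0156), and in DESeq2 -0.19 (adjusted p = 0.0437).

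Among the snoRNP proteins, which guide the chemical modification of rRNA, all 6 members fell. Fibrillarin (Fbl), the methyltransferase of the box C/D particles, had 114, 96.3, 118 and 108 CPM in the monocultures, against 169, 168, 163 and 158 CPM in the fresh cells. No monoculture reached the lowest fresh library, and the log2 fold change was -0.49 ± 0.06 (SE; adjusted p = 7.38e-06). Its partners Nop56 (-0.40) and Nop58 (-0.30) fell less. In the box H/ACA particles, which convert uridine to pseudouridine, Nhp2 had 41.8, 33.3, 36.9 and 39.2 CPM in the monocultures, against 60.9, 53.5, 66.2 and 53.4 CPM in the fresh cells (log2 fold change -0.54 ± 0.09 SE; adjusted p = 0.000155). Those values do not overlap either, and Gar1 (-0.50) and the pseudouridine synthase Dkc1 (-0.28) moved the same way.

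All 3 nucleolar chaperones fell. Nolc1, a scaffold that carries snoRNPs, had 101, 93.9, 113 and 105 CPM in the monocultures, against 214, 199, 197 and 191 CPM in the fresh cells. Every monoculture stood far under every fresh library, with a log2 fold change of -0.86 ± 0.06 (SE; adjusted p = 4.05e-09). Nucleolin (Ncl, -0.73) and nucleophosmin (Npm1, -0.71) fell by similar amounts, and Ncl is the largest single contributor to the summed level in NK cells, at 566 to 694 CPM in monocultures and 1010 to 1330 CPM in fresh cells. Without Ncl and Npm1 the remaining 33 genes summed to 2310 to 2720 CPM in monocultures and 3300 to 3480 CPM in fresh cells.

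Of the RNA polymerase I group, 2 of 3 fell. Mybbp1a, a nucleolar regulator of rRNA transcription, had 198, 176, 203 and 183 CPM in the monocultures, against 257, 265, 279 and 269 CPM in the fresh cells, and the groups were apart (log2 fold change -0.39 ± 0.06 SE; adjusted p = 3.65e-05). The subunit gene Polr1b fell (-0.31), while the largest subunit, Polr1a, had a log2 fold change of -0.10 and was not called (adjusted p = 0.204).

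In the 40S assembly group, 8 of 12 fell, 1 rose and 3 were not called. Bysl, needed late in 40S maturation, had 34.6, 30.7, 33.4 and 31.1 CPM in the monocultures, against 52.9, 54.7, 46.1 and 47.0 CPM in the fresh cells (log2 fold change -0.53 ± 0.08 SE; adjusted p = 2.5e-05). The groups were apart, and Rrp12, known in yeast for subunit export, fell more (-0.63). Nop14, part of the small subunit processome, was the member called higher: 66.6 and 63.5 CPM in female and 81.6 and 72.3 CPM in male monocultures, against 73.3 and 66.3 CPM in female and 66.7 and 61.7 CPM in male fresh cells. The groups overlap, and the log2 fold change was 0.18 ± 0.07 (SE; adjusted p = 0.0455). That call was lost with median-ratio scaling (0.109), total counts (0.392) and DESeq2 (0.151), without monoculture female 1 (0.0866), female 2 (0.0635) or male 4 (0.194) or fresh female 2 (0.136), male 4 (0.0552) or male 5 (0.144), values that are all adjusted p, and Nop14 stood at -0.01 when only female libraries were fitted. Tsr1 (0.07), Ddx10 (-0.19) and Utp20 (-0.21) did not pass the test.

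The largest change of any member was in the PeBoW complex, which acts on the 60S precursor. Wdr12 had 23.0, 20.9, 22.3 and 18.7 CPM in the monocultures, against 52.5, 58.0, 67.3 and 58.5 CPM in the fresh cells. The groups lie far apart, with a log2 fold change of -1.38 ± 0.09 (SE; adjusted p = 1.89e-09). Its partners Bop1 (-0.25) and Pes1 (-0.21) fell by much less. Of 8 further 60S assembly genes, 6 fell, led by the nucleolar GTPase nucleostemin (Gnl3) with 61.7, 58.8, 70.8 and 51.2 CPM in the monocultures, against 96.5, 107, 117 and 107 CPM in the fresh cells (log2 fold change -0.72 ± 0.09 SE; adjusted p = 6.89e-06). Every monoculture was below every fresh library for Gnl3, and Nip7 (-0.18) and Noc3l (-0.06) were not called.

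**Figure D2:**
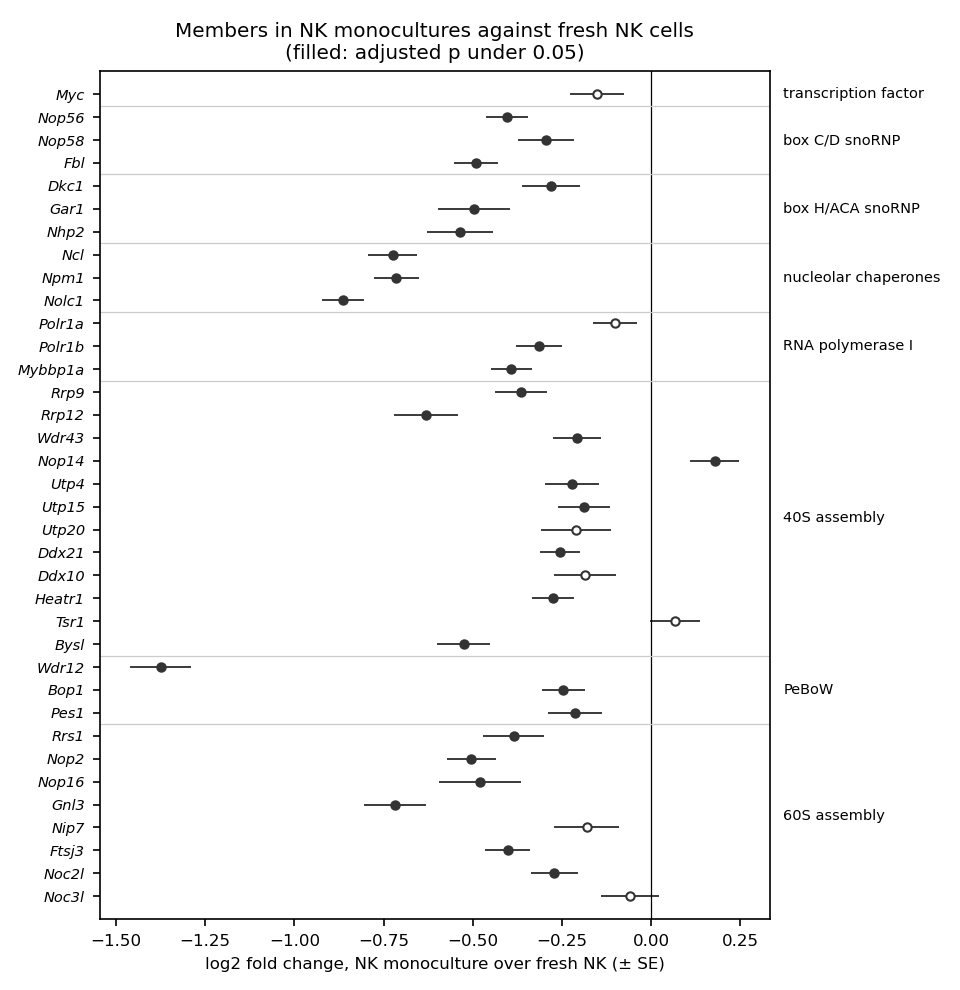
Log2 fold change (± SE) of each member in NK monocultures over fresh NK cells, grouped by role; filled points have an adjusted p under 0.05. All 3 nucleolar chaperones lie between -0.86 and -0.71, Wdr12 stands apart at -1.38, and the open point for Myc is at -0.15.

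Of the 7 members with an E-box match, 5 fell, with a median log2 fold change of -0.21, and of the 23 with a window but no match, 18 fell and 1 rose, with a median of -0.31. The rest of the pathway was followed with wider lists, chosen with earlier results of these data known. Of 77 other ribosome biogenesis genes, 31 fell and 16 rose (median -0.06), with Lyar (-0.93), Naf1 (-1.05) and Ppan (-0.64) at the smallest p. Those that rose were Gnl3l (0.52), Mdn1 (0.47), an ATPase of 60S maturation, Rrp1b (0.49), Nmd3, Rpf1, Nol7, Ltv1, Dcaf13, Riok2, Krr1, Pak1ip1, Ddx52, Utp18, Rrp36, Utp3 and Nop53. Over the alternative settings the counts of that list ran from 21 to 36 lower and from 6 to 17 higher. Of 15 further RNA polymerase I genes, 6 fell, led by Polr1d (-0.38), Polr1g (-0.58) and Tcof1 (-0.29), and Polr1h (0.45), Taf1b (0.36) and Taf1a (0.35) rose. Of 32 Myc targets outside the nucleolus, 22 fell and 2 rose. The smallest p there belonged to the lactate transporter Slc16a1 (-2.19), spermidine synthase Srm (-1.59) and the purine enzyme Gart (-0.92), while cyclin Ccnd2 (0.63) and the translation factor Eif5a (0.23) rose. Cytoplasmic ribosomal protein genes went the other way: 65 of 79 rose (median 0.37), led by Rps15a (0.92), Rpl5 (0.85) and Rps13 (0.81), while Rpl13a (-0.67) and Rps10 (-0.88) fell. Over the alternative settings 41 to 71 of them rose, and many have pseudogene copies that share reads. In the Myc network, 5 of 16 tested genes rose and 8 fell: the kinase Pim1 rose (0.96), as did Mnt (0.32), Mlx (0.33), Usp28 (0.44) and Mga (0.18), while Mlxip (-0.64) and Mxd1, a Max partner that opposes Myc (-0.57), fell.

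Other groups of genes moved with this comparison. Cell cycle genes summed to 938 to 1250 CPM in monocultures and 2270 to 2980 CPM in fresh cells, and all 25 fell. Markers of red cell precursors summed to 228 to 436 CPM in monocultures and 861 to 1760 CPM in fresh cells, with 10 of 12 lower. Klf1, a defining transcription factor of that lineage, had 0.0 to 0.217 CPM in monocultures and 55.3 to 92.2 CPM in fresh cells. Of the markers of B cells and plasma cells, 6 of 8 fell and 1 rose, and all 7 tested markers of dendritic cells fell. Of the endothelial markers 4 of 7 fell and 1 rose (median -2.44), and of those of fibroblasts and pericytes 4 of 5 tested fell, with sums of 0.41 to 0.91 CPM in monocultures and 4.91 to 14.1 CPM in fresh cells. Markers of Panc02 and epithelium rose in 6 of 7 cases (median 3.23), with sums of 15.2 to 29.4 CPM in monocultures and 2.46 to 5.05 CPM in fresh cells. Of the T cell markers 3 of 6 tested fell and 1 rose, 4 of 10 neutrophil markers fell, and 2 of 5 tested macrophage markers fell. The part of these in the members' fall was not tested.

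The next comparisons were between the sexes. In fresh cells, 1 member (Rrp9) was higher and 2 (Dkc1 and Utp4) were lower in females than in males, against 8.59% of all genes called, 4.03% higher and 4.57% lower. The share of members called was thus near that of all genes. Dkc1, which lies on the X chromosome (74139460 to 74153383, GRCm39), had 77.7 and 94.8 CPM in female and 124 and 122 CPM in male fresh cells (log2 fold change -0.54 ± 0.12 SE; adjusted p = 0.0105). Utp4, of the small subunit processome, had 46.1 and 50.7 CPM in female and 69.1 and 61.2 CPM in male fresh cells (-0.45 ± 0.11 SE; adjusted p = 0.0179). In both genes the female libraries lie below the male ones. Rrp9, a protein of the U3 snoRNP, had 67.7 and 59.7 CPM in female and 50.8 and 47.9 CPM in male fresh cells (0.36 ± 0.10 SE; adjusted p = 0.0453), again without overlap. The share of all genes with such separation between the sexes was not computed, and groups of 2 libraries separate easily. Without fresh female 1, where the lone female library is assumed to vary like the other NK libraries, none of the 3 was called: Dkc1 (-0.47, adjusted p = 0.0996) and Utp4 (-0.46, adjusted p = 0.0778) changed little in size, while Rrp9 was at 0.18 (adjusted p = 0.5). Leaving out fresh male 4 or fresh male 5 also ended the call of Rrp9 (adjusted p = 0.164 and 0.302), as did leaving out monoculture male 4 or male 5 (0.0644 and 0.064), median-ratio scaling (0.0596) or a fit on the 4 fresh libraries alone (0.0675), and fresh male 4 ended that of Utp4 (adjusted p = 0.169). Of 25 cell cycle genes, 8 were lower and 0 higher in females. Neutrophil markers summed to 24.9 and 80.7 CPM in female and 186 and 520 CPM in male fresh cells, with 2 of 10 called lower (median -3.07). The part of either in these differences was not tested. Myc had a log2 difference of -0.28 ± 0.11 (SE) and was not called (adjusted p = 0.128), but it was called in DESeq2 (-0.31, adjusted p = 0.0415), with no filter on low counts (-0.29, adjusted p = 0.0312) and without monoculture male 4 or male 5 (adjusted p = 0.0469 and 0.0457).

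After culture, 0 members were called between female and male NK cells in edgeR and 0 in DESeq2. In edgeR 0.0764% of all genes were called, 0.0306% higher and 0.0459% lower, and in DESeq2 0.219%. At an unadjusted p under 0.05 in edgeR there were 7 members, and the share of all genes at that threshold was not computed. The count of 7 thus cannot be set against all genes. Myc had a log2 difference of -0.23 (adjusted p = 0.924), which was -0.43 without monoculture male 5 and -0.02 without monoculture male 4. The difference of the culture effect between the sexes, tested directly, was called for 0 members and 1.65% of all genes, 0.479% higher and 1.17% lower. At an unadjusted p under 0.05 it held 9 members, again with no share of all genes computed to set them against. DESeq2 called 1 member there, higher, where it called 4.93% of all genes. For Myc the interaction was 0.05 ± 0.15 (SE; adjusted p = 0.938), and it was -0.14 without monoculture male 5 and 0.26 without monoculture male 4, so that its sign rests on single libraries.

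**Figure D3:**
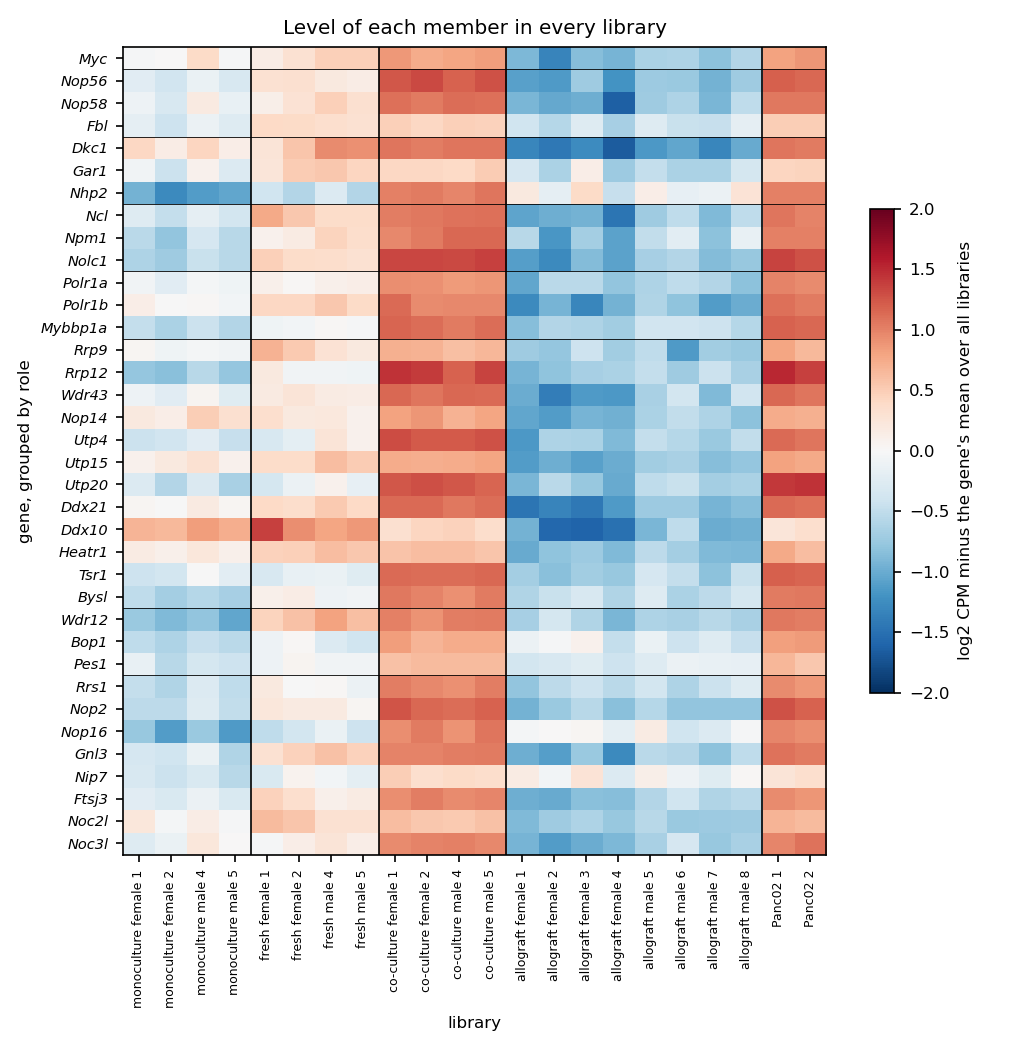
Level of each member (rows, by role) in each of the 22 libraries (columns), as log2 CPM minus the gene's mean over all libraries; red is above and blue below that mean. The co-cultures resemble cultured Panc02, Ddx10 is the row that is highest in NK cells, and Nip7 and Nop16 stay near their own mean in the allografts.

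The second comparison set Panc02 co-cultured with NK cells against Panc02 alone. Of the members, 3 were higher and 1 was lower, against 12.2% of all 18172 genes tested called higher and 6.12% lower (18.3% in all). Members were thus called less often than all genes, and their median log2 fold change was 0.03, beside 0.01 for all genes. Myc had 257 and 234 CPM with female and 242 and 252 CPM with male NK cells, against 245 and 259 CPM in cultured Panc02. The groups overlap fully, and the log2 fold change was 0.02 ± 0.04 (SE; adjusted p = 0.81).

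The called members came from 3 roles. Utp4 had 143 and 136 CPM with female and 135 and 140 CPM with male NK cells, against 127 and 122 CPM in cultured Panc02 (log2 fold change 0.20 ± 0.04 SE; adjusted p = 0.00141). All co-cultures lay above both Panc02 libraries, which held for 2 members (Utp4 and Nip7) and for 14.9% of all genes tested. All co-cultures lay below both for 6 members (Fbl, Polr1a, Utp20, Heatr1, Noc2l and Tsr1) and for 22.7% of all genes tested. In both directions the share of members was below that of all genes. These separations are in CPM, whereas the log2 fold changes use scaling over all genes (TMM). Fbl had a log2 ratio of -0.034 in CPM, while the lowest box C/D member stood at 0.019 with TMM. Utp20, a scaffold of the small subunit processome, went down: 156 and 162 CPM with female and 157 and 148 CPM with male NK cells, against 176 and 180 CPM in cultured Panc02 (-0.14 ± 0.04 SE; adjusted p = 0.0158), again apart. Nop56, a core protein of box C/D particles, had 440 and 465 CPM with female and 421 and 450 CPM with male NK cells, against 424 and 411 CPM in cultured Panc02. These overlap, since the male 4 co-culture is under the higher Panc02 library (0.14 ± 0.04 SE; adjusted p = 0.011). Npm1 had 1240 and 1310 CPM with female and 1420 CPM in each co-culture with male NK cells, against 1280 CPM in both Panc02 libraries (0.12 ± 0.03 SE; adjusted p = 0.00876), and the female 1 co-culture lay below Panc02.

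With 1 Panc02 library left out, the remaining one is assumed to vary like the co-cultures. Without Panc02 1 or Panc02 2, the log2 changes were 0.16 and 0.13 for Nop56 (adjusted p = 0.0777 and 0.15), 0.12 and 0.13 for Npm1 (0.128 and 0.0877) and -0.16 and -0.12 for Utp20 (0.0809 and 0.191), about as large but not called. Leaving out co-culture male 5 gave 0.12 for Nop56 and -0.12 for Utp20, neither of them called. With total counts as the scale, Nop56 (0.09, adjusted p = 0.0988) and Npm1 (0.07, adjusted p = 0.113) were not called. After the estimated NK RNA was taken off, the log2 ratio of CPM was 0.18 for Utp4, 0.11 for Nop56, 0.10 for Npm1 and -0.17 for Utp20, against 0.15, 0.09, 0.07 and -0.20 on the same CPM scale as measured, values with no test.

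Npm1 was also the member called between co-cultures of female and male NK cells, with 1240 and 1310 CPM in the female and 1420 CPM in each male co-culture (log2 difference -0.18 ± 0.04 SE; adjusted p = 0.0102), against 1.14% of all genes called, 0.985% higher and 0.154% lower. Of 10 NK markers, 4 were called higher and 0 lower with female NK cells (median 0.62), and the NK share was 2.74% and 3.36% with female and 2.05% and 1.72% with male NK cells, whose part in the difference was not tested. The Npm1 groups are apart, but the call was lost without co-culture female 1, male 4 or male 5 (adjusted p = 0.0869, 0.0896 and 0.142). Myc had a log2 difference of -0.04 (adjusted p = 0.814), with values from -0.10 to 0.02 when 1 library was left out. Of the wider lists, 57 of 79 cytoplasmic ribosomal protein genes were higher in co-culture (median 0.13), led by Rpl41 (0.25), Rpl29 (0.25) and Rpl30 (0.24), and 14 to 66 were over the alternative settings. Of 77 other biogenesis genes, 12 were higher, led by Lyar (0.25) and Brix1 (0.20), and Mdn1 (-0.22) and Urb1 (-0.20) were lower. Of 32 Myc targets, 8 were higher, led by Eif5a (0.18), Paics (0.19) and Nampt (0.26), and Cad (-0.15) and Gart (-0.11) were lower. Polr1d (0.14) was the 1 RNA polymerase I gene called, and 3 cell cycle genes, Pcna, Mcm7 and Mcm5, were higher. In the Myc network Pim1 (1.20), Mxd1 (0.37), Mxd4 (0.35) and Mxi1 (0.25) were higher. Pim1 had 21.8 to 33.4 CPM in co-culture, against 11.0 to 13.9 CPM in cultured Panc02, while NK monocultures held 450 to 547 CPM. Mxd4 likewise had 13.8 to 16.1 CPM in co-culture, against 11.9 to 12.4 CPM in cultured Panc02, with 212 to 248 CPM in NK monocultures. The part of NK RNA in those differences was not tested.

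The third comparison set Panc02 tumours against Panc02 in culture. With scaling over all genes (TMM), 35 of 36 members fell in allografts, against 62.1% of all 23264 genes called (23.3% lower, 38.8% higher). The median log2 fold change was -1.60, beside 0.42 for all genes. The same 35 members had every allograft below both Panc02 libraries, which held for 25.9% of all genes tested. By library, the members stood at a median of 27.0% to 29.6% of their cultured level in tumours of females and 33.3% to 35.2% in tumours of males.

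Myc ranged from 56.6 to 93.5 CPM in the 8 allografts (median 78.6 CPM), against 245 and 259 CPM in cultured Panc02. The groups lie far apart (log2 fold change -1.60 ± 0.12 SE; adjusted p = 1.5e-06). The deepest fall was in Dkc1, at 20.4 to 32.3 CPM in allografts (median 26.6 CPM), against 136 and 133 CPM in cultured Panc02 (-2.26 ± 0.11 SE; adjusted p = 7.76e-08). Nolc1 followed with 63.8 to 103 CPM in allografts (median 84.8 CPM), against 394 and 374 CPM in cultured Panc02 (-2.14 ± 0.11 SE; adjusted p = 8.9e-08). For both genes even the highest allograft lay far below the lower Panc02 library.

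The other roles followed. Ddx21, a helicase that couples RNA polymerase I transcription with processing, had 77.2 to 128 CPM in allografts (median 104 CPM), against 462 and 455 CPM in cultured Panc02 (-2.12 ± 0.11 SE; adjusted p = 1.07e-07). Nop56 had 81.2 to 114 CPM in allografts (median 104 CPM), against 424 and 411 CPM in cultured Panc02 (-2.0 ± 0.11 SE; adjusted p = 2.34e-07). Nop2 had 41.4 to 54.3 CPM in allografts (median 46.2 CPM), against 193 and 181 CPM in cultured Panc02 (-1.92 ± 0.10 SE; adjusted p = 1.22e-07). In each of these all 8 allografts lay below both Panc02 libraries. Mybbp1a had 152 to 210 CPM in allografts (median 184 CPM), against 620 and 609 CPM in cultured Panc02 (-1.66 ± 0.09 SE; adjusted p = 1.7e-07). Wdr12 had 20.4 to 30.4 CPM in allografts (median 24.9 CPM), against 79.9 and 78.6 CPM in cultured Panc02 (-1.59 ± 0.11 SE; adjusted p = 9.9e-07). Both were again apart from Panc02.

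The smallest changes were spread over roles. Nip7, a 60S assembly factor, had 36.9 to 53.9 CPM in allografts (median 44.0 CPM), against 53.3 and 56.3 CPM in cultured Panc02, and it was not called (-0.24 ± 0.14 SE; adjusted p = 0.16), one allograft lying above the lower Panc02 library. Pes1 (-0.78), Gar1 (-0.81), Fbl (-0.83), Nhp2 (-0.92), Nop16 (-0.97) and Bop1 (-0.99) fell least among those called. Within the box C/D particle Fbl fell by 0.83 on the log2 scale and Nop56 by 2.0, and within the H/ACA particle Gar1 fell by 0.81 and Dkc1 by 2.26, differences between genes that were not tested.

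**Figure D4:**
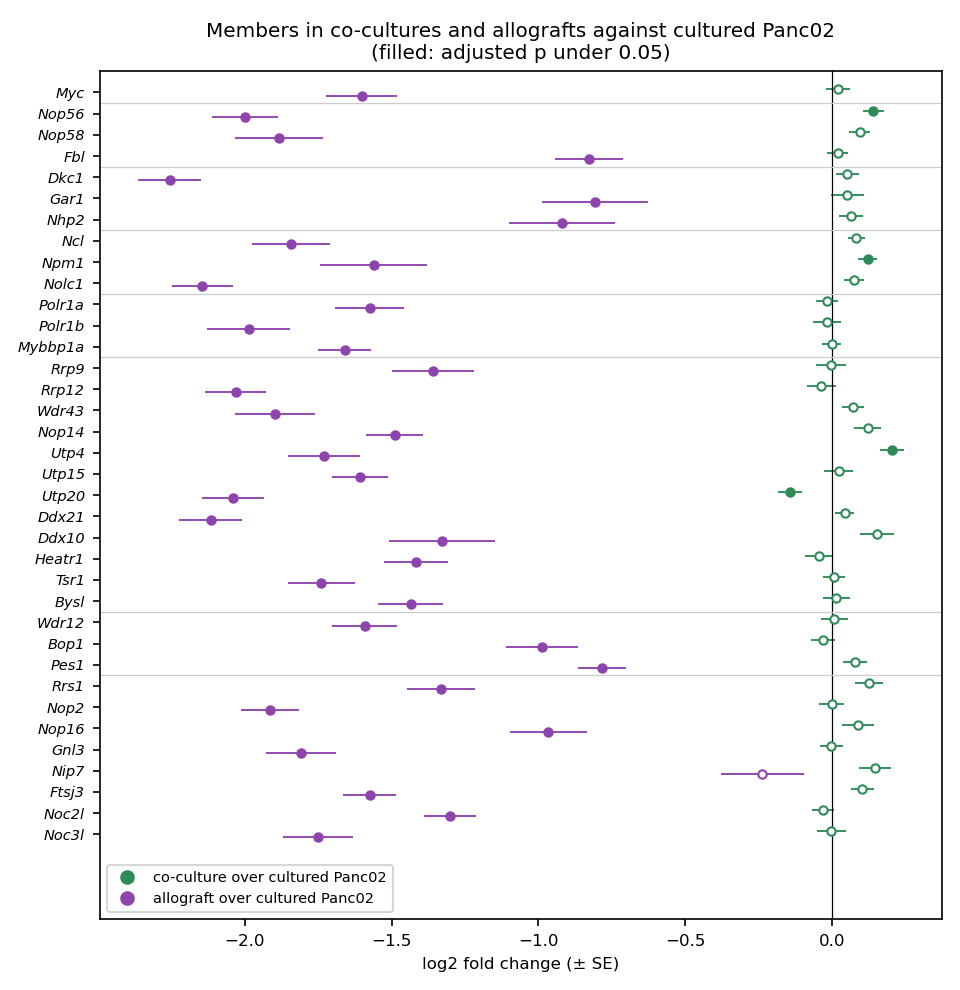
Log2 fold change (± SE) of each member in co-cultures (green) and allografts (purple) over cultured Panc02, grouped by role; both comparisons share the 2 Panc02 libraries, and filled points have an adjusted p under 0.05. The co-culture values lie between -0.14 and 0.20, and the allograft values between -2.26 and -0.24.

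An allograft is a mixture, and the size of these changes depends on what the libraries are scaled to. Macrophage markers summed to 3800 to 7850 CPM in allografts and 24.3 to 25.6 CPM in cultured Panc02 (where C1qa, C1qb, C1qc, Adgre1 and Lyz2 were at 0), and fibroblast and pericyte markers to 7800 to 24500 CPM in allografts and 1.47 to 2.18 CPM in cultured Panc02. A set of 67 genes restricted to Panc02 (at least 20 CPM in both Panc02 and at most 0.05 CPM in all fresh NK libraries, with other host cells not considered) had a median log2 fold change of -1.31 itself, with 47 lower and 3 higher. The set was chosen as high in the same Panc02 libraries that serve as the reference here. Its fall, and any scaling to it, therefore depend in part on that choice. When the libraries were scaled to those 67 genes, an alternative chosen after the data were seen, 13 members were lower, 4 were higher (Fbl, Pes1, Nip7 and Gar1) and 19 were not called, where 77.9% of all genes were called. The median of the members became -0.19 and that of all genes 1.82, and Myc became -0.20 ± 0.14 (SE; adjusted p = 0.18). Those 13 were Nop56, Nop58, Dkc1, Ncl, Nolc1, Rrp12, Wdr43, Polr1b, Nop2, Gnl3, Utp20, Ddx21 and Noc3l, from -0.85 for Dkc1 to -0.35 for Noc3l. Fewer tumour cells and less RNA per tumour cell cannot be told apart here, and NK cells, a host cell type, express all members at the levels given above. NK markers summed to 19.2 to 80.4 CPM in allografts, and the members were not measured in other host cells alone. Leaving out the female 2 and female 4 allografts, the richest in muscle RNA, left 35 members lower with a median of -1.60.

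**Figure D5:**
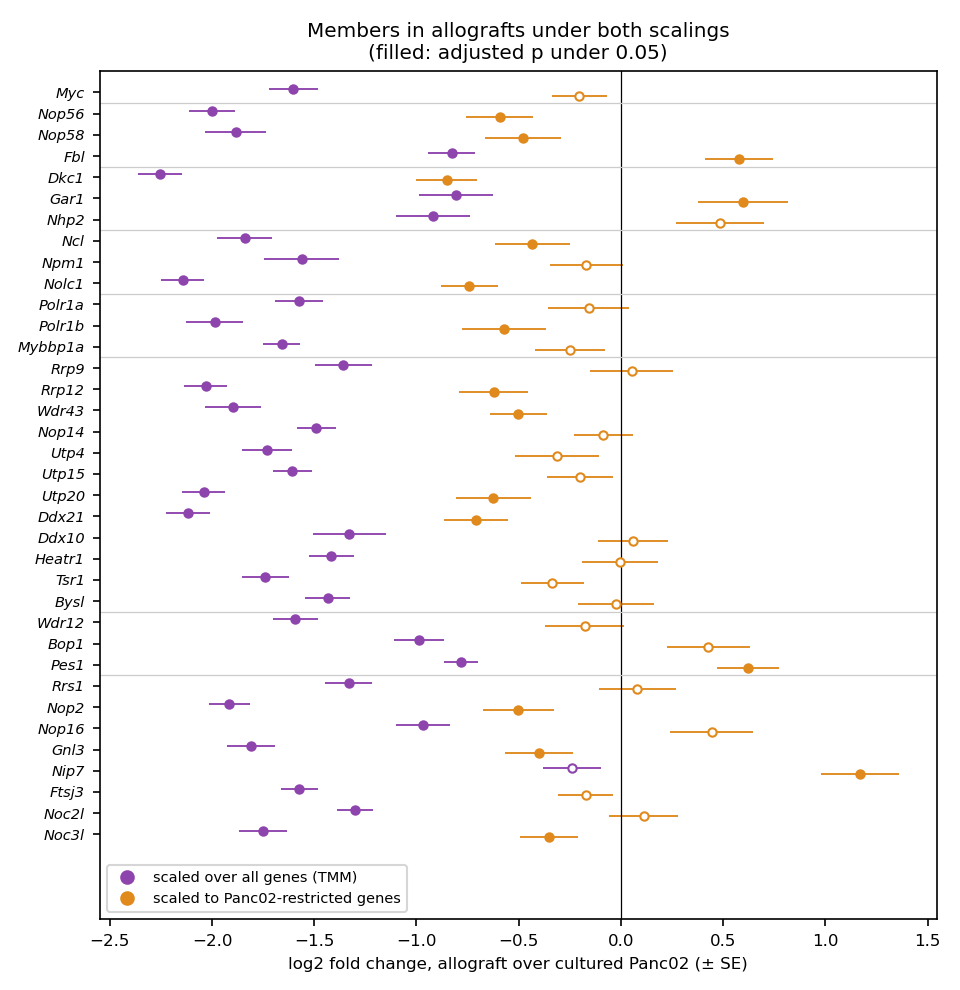
Log2 fold change (± SE) of each member in allografts over cultured Panc02 with scaling over all genes (purple) and with scaling to 67 genes restricted to Panc02 (orange); filled points have an adjusted p under 0.05. The orange values lie between -0.85 and 1.17, with Nip7 highest, and each gene lies further right than with scaling over all genes.

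Of the wider lists, 72 of 77 other biogenesis genes fell and 1, Nop53, rose in allografts (0.51); Lyar (-2.48), Wdr36 (-2.17) and Naf1 (-1.84) had the smallest p. Of 32 Myc targets outside the nucleolus, 27 fell and 0 rose, with Pa2g4 (-1.76), Hspd1 (-2.23) and Ccnd2 (-1.75) at the smallest p, and all 25 cell cycle genes fell, led by Ccne2 (-3.38). Of 15 RNA polymerase I genes, 11 fell, led by Taf1d (-1.96), Tcof1 (-1.26) and Rrn3 (-0.91), and Polr1h rose (0.91). Cytoplasmic ribosomal protein genes again went the other way, with 59 of 79 higher (median 0.78), led by Rpl39 (2.14), Rpl10 and Rps27 (1.81), and Rpl7a (-0.98) and Rps10 (-1.39) lower. With scaling to the Panc02-restricted genes, under which 77.9% of all genes were called and the median gene stood at 1.82, 35 of the 77 other biogenesis genes were higher and 4 lower, 16 of the 32 Myc targets were higher and 4 lower, 11 RNA polymerase I genes were higher and 1 lower, 2 cell cycle genes were higher and 6 lower, and 78 of 79 ribosomal protein genes were higher. In the Myc network 7 of 17 genes were higher and 3 lower (15 and 0 with the other scaling), led by Mxd4, a Max partner that opposes Myc, at 140 to 169 CPM in allografts, against 11.9 to 12.4 CPM in cultured Panc02 (3.76 ± 0.12 SE; adjusted p = 2.12e-08). Mycl was also called higher, at 1.24 to 2.46 CPM in allografts and 0.0427 to 0.0475 CPM in cultured Panc02, and Huwe1 (-1.08), Mga (-1.23) and Mlx (-0.29) were lower. Fresh NK cells held 254 to 292 CPM of Mxd4. NK markers summed to 19.2 to 80.4 CPM in allografts and 9760 to 10900 CPM in fresh NK cells. The part of NK or other host cells in the difference of Mxd4 was not tested.

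Between tumours of female and male hosts, 0 members were called in edgeR, where 0.0146% of all 20560 genes were called. At an unadjusted p under 0.05 there were 11 members, all lower in females, and the share of all genes at that threshold was not computed. Without that share the count of 11 cannot be set against all genes. DESeq2 called 3 members lower in females, where it called 3.3% of all genes. The median member had a log2 difference of -0.19, beside 0.04 for all genes, and 28 of 36 were lower in females. Myc ranged from 56.6 to 77.6 CPM in tumours of females and from 79.6 to 93.5 CPM in tumours of males, which do not overlap, with a log2 difference of -0.28 ± 0.13 (SE; adjusted p = 0.339). Without the female 2 tumour alone, the lowest in Myc, the difference was -0.18. The median Panc02-restricted gene was at 27.6% to 37.0% of culture in tumours of females and 37.6% to 43.7% in tumours of males, and their part in this difference was not tested.

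Finally, NK cells were set against the tumour line to place the levels. Fresh NK cells had 34 members lower and 1 higher than cultured Panc02, where 69.9% of all 21334 genes tested were called (37.4% higher, 32.4% lower), with a median of -0.75 for the members and 0.10 for all genes. NK monocultures had 35 lower and 1 higher, where 71.1% of genes were called (38.1% higher, 32.9% lower), with medians of -1.12 for the members and 0.14 for all genes. Myc was lower in both, with log2 differences of -0.67 ± 0.09 in NK monocultures (SE; adjusted p = 1.05e-05) and -0.52 ± 0.09 in fresh NK cells (SE; adjusted p = 0.000133), each over cultured Panc02. Ddx10, a helicase of 40S assembly, was the exception: 64.9 to 74.0 CPM in NK monocultures and 71.9 to 107 CPM in fresh NK cells, against 49.3 and 52.4 CPM in cultured Panc02, a log2 difference of 0.50 ± 0.11 (SE; adjusted p = 0.000775) for monocultures and 0.69 ± 0.11 (SE; adjusted p = 5.22e-05) for fresh cells. All NK libraries lie above Panc02. The widest gaps were in Utp20 for fresh NK cells (-1.59) and Rrp12 for NK monocultures (-2.10), and Gar1 in fresh NK cells (-0.04, adjusted p = 0.794) was not called. Both comparisons share the Panc02 libraries.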

How the data were processed

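RNA was sequenced from 22 mouse samples. The authors deposited raw counts of reads for each gene, as whole numbers. The tools named in the submitters' processing notes are featureCounts 2.0.6, SAMtools 1.19.2, HISAT2 2.2.1 and cutadapt 4.4; per the file headers, exon reads of Ensembl release 113 genes (GRCm39) were counted with strand setting 2, multi-mapped reads included, and each mate counted on its own, so that 66.4% to 78.6% of low counts were even and a count overstates the number of fragments. The labels place cultured Panc02 in the second table, but its columns stand in the first, beside the NK and co-culture libraries; only the allograft comparisons cross tables.

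Members and gene lists were chosen with earlier results of these data known. Levels are CPM. Differences were tested with edgeR 4.0.16 (TMM, filterByExpr, robust quasi-likelihood F-test; R 4.3.3) with Benjamini-Hochberg adjustment over all genes at 0.05; SEs are the size of the log2 change over root F. NK cells were fitted on 8 libraries (19623 genes), co-cultures with Panc02 on 6, allografts with Panc02 on 10, allografts alone on 8 and NK cells with Panc02 on 10. Named are Myc, the called member of smallest p in each role and those called against their role, plus every call between sexes; of each wider list, the 3 called genes of smallest p and those called against the majority (cell cycle genes in part). Other genes named were picked after their values were seen. Replicate numbers shared by fresh and monocultured cells were not used for pairing in the main fit. The labels do not say whether such numbers mark the same animal. NK RNA was taken off co-cultures with the share from 304 NK-restricted genes. Alternatives were median-ratio scaling, total counts, DESeq2 1.42.0, no filter, counts divided by 2, other sample sets, 1 library left out and a replicate block, with 2 settings added after seeing the data: scaling to Panc02-restricted genes and leaving out muscle-rich allografts. Scripts were checked on simulated counts. Promoter sequences are from RefSeq (GRCm38.p6).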

Additional observations from a re-analysis of the deposited data

Results flagged for a closer look

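Among the members, 5 of 72 groups of 4 allografts (36 genes in each host sex) held a library far from the other 3, where chance flags about 1 group in 20. Myc stood at 56.6 CPM in the female 2 allograft, and at 74.0 to 77.6 CPM in the other female tumours. Nop2 stood at 53.6 CPM in male 5 and at 46.1 to 46.2 CPM in the other male tumours, and Noc2l at 103 CPM in male 5 and at 90.1 to 92.0 CPM in the others. Ddx10 stood at 21.5 CPM in female 1, with 13.7 to 14.8 CPM in the other female tumours, and at 29.3 CPM in male 6, with 21.0 to 22.0 CPM in the other male tumours. Without the female 2 allograft, Myc in allografts over cultured Panc02 was -1.55 on the log2 scale, against -1.60 with it.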

How the results depend on the processing

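Percentages in brackets give the share of all genes called in that setting, in either direction. The 28 members lower in NK monocultures numbered 19 to 33 in every setting, from male libraries alone (33.3%) to total counts (44.1%). The median log2 fold change of the members was -0.36 to -0.26 with 1 library left out. The 1 higher member (Nop14) became 0 with median-ratio scaling (44.8%), total counts (44.1%), DESeq2 (43.7%) and female libraries (35.3%), where Nop14 was -0.01. With 1 library left out Nop14 was 0.14 to 0.23. Myc there was -0.25 with total counts and -0.19 in DESeq2, both past the threshold, and -0.25 to -0.05 with 1 library left out. Between fresh females and males, the count higher was 0 with median-ratio scaling (9.64%) or the 4 fresh libraries alone (7.61%). It was 2 with total counts (8.24%), counts divided by 2 (11.6%) or 12 libraries (10.0%), and 3 with no filter (6.39%). The count lower was 4 in DESeq2 (12.2%) and with no filter (6.39%). Myc was -0.31 in DESeq2 and -0.29 with no filter, past the threshold. With 1 library left out Myc was -0.35 to -0.27 and the median of the members -0.10 to 0.01. The interaction gave 1 higher in DESeq2 (4.93%) and with no filter (2.49%), and 2 lower with no filter. With 1 library left out Myc in the interaction was -0.14 to 0.26. In co-culture, total counts left 1 higher (18.6%), and 1 library left out gave 1 to 7 higher and 0 to 1 lower (7.92% to 18.2%). Between donor sexes 1 library left out gave 0 to 1 lower (0.498% to 1.11%). The share called in co-culture over cultured Panc02 was 7.92% without Panc02 1 and 9.91% without Panc02 2, against 18.3% in the main fit. Members and all genes were thus both called less often without a Panc02 library. Each of these fits left 1 library in a group, which limits what its counts can show. In allografts, scaling to Panc02-restricted genes gave 4 higher and 13 lower (77.9%), with Myc at -0.20. DESeq2 gave 3 lower in tumours of females (3.3%). With a replicate block in the NK fit, 1 member was higher and 29 lower (44.4%) and Myc was -0.16. Deviations of same-numbered fresh and monocultured libraries from their group means correlated at 0.0109 in females and 0.0744 in males. Groups of 2 libraries give only 1 such value per sex, which cannot show whether the numbers pair the libraries. The cause of the shifts between settings was not tested. Groups of 2 libraries and mates counted apart limit the precision of small differences.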
